A study of Homo sapiens with 4 samples.

Results

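The 81 genes described here encode the cytosolic ribosomal proteins (RPs), 49 of the large and 32 of the small ribosomal subunit. They were taken from the 20033 protein-coding genes of GENCODE 44 on the hg38 genome by symbol alone, as RPL or RPS followed by a number and at most 1 suffix A, X, or L, together with *RPLP0*, *RPLP1*, *RPLP2*, and *RPSA*. The rule also takes in the tissue-restricted paralogs *RPL3L*, *RPL10L*, and *RPL39L* and the p53-inducible paralog *RPS27L*. CUT&RUN, in which micrococcal nuclease is tethered to an antibody and the released DNA is sequenced, was performed for WDR5 and for SS18::SSX in HSSY II cells, a human synovial sarcoma (SS) line that carries the SS18::SSX1 fusion. The cells received DMSO, the vehicle, or 2.5 μM MS67 for 4 days, which gives 4 libraries with 1 library for each protein and condition. MS67 is a VHL-recruiting PROTAC, a molecule that marks WDR5 for degradation. All 4 libraries shared the cell line and the duration of treatment, and 50000 murine NIH-3T3 cells were added to each as a spike-in, wild type or transduced with H2B-GFP. Because each condition of this single line has 1 library, differences between conditions have no replicate check, and genes were not used as replicates for a p-value. Binding in fewer cells and weaker binding in each cell cannot be told apart in such bulk libraries.

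WDR5 is a scaffold of the KMT2/MLL complexes that methylate lysine 4 of histone H3, and it is known to occupy many RP gene promoters in other cell types. RP genes are among the most strongly transcribed genes of a growing cell, and their products must be made in matched amounts. Their promoters are short and often initiate in a run of pyrimidines, the terminal oligopyrimidine (TOP) motif, through which translation of the mRNA responds to growth signals. The study assayed *RPL27*, *RPL7*, *RPL35*, and *RPS10* by RT-qPCR, so these 4 genes are given below in each list.

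A TOP-like start was a shared feature of the RP promoters. Sequences from 250 bp before to 50 bp after the start site (RefSeq, GRCh38) were matched for 64 of the 81 genes. Of these, 46 (71.9%) began with C followed by 4 further pyrimidines, a pattern present at 4.07% of the 35116 promoters in the table. The ETS-family core CCGGAAG, searched on both strands, was in 22 RP promoters (34.4%) and in 10.3% of all promoters. The E-box CACGTG was in 3 (4.69%), against 7.26% of all, and TATAAA in 6 (9.38%), against 11.5%. AAGATGG, the core bound by YY1, was in 8 (12.5%), against 5.84%. The ETS and YY1 letters can overlap by the AAG that they share, and the TOP pattern was read only at the start base. The start sites below run from 40 bases before to 10 bases from the start, with the pyrimidine run that spans the start in capitals. *RPL7A* had the longest run, the other genes with a run are those described most below, and *RPL10A* and *RPL27* are shown as starts without one.
RPL7A (chr9:133348178-133348227, + strand): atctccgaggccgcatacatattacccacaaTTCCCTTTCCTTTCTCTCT
RPL28 (chr19:55385892-55385941, + strand): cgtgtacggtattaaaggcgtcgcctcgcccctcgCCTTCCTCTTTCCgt
RPL35 (chr9:124861948-124861997, - strand): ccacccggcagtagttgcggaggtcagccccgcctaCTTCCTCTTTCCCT
RPS10 (chr6:34426060-34426109, - strand): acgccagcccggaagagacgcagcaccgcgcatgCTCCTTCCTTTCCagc
RPL36A (chrX:101390971-101391020, + strand): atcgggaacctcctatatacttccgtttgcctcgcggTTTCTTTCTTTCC
RPL10A (chr6:35468361-35468410, + strand): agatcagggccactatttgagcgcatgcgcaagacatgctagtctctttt
RPL27 (chr17:42998379-42998428, + strand): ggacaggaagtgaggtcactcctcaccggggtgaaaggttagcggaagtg
Among the 62 RP starts placed at the same base by RefSeq and GENCODE, 48 had a run of at least 5 pyrimidines that included the start base. The median length of this run within the window was 11 bases, with starts at a purine counted as 0. Runs elsewhere in the window were not counted. The ETS core was in 7 of the 29 matched promoters with a WDR5 peak under DMSO (24.1%) and in 15 of the 35 without one (42.9%), which is a description of letters and not of binding.

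The peak lists were read as deposited, without spike-in scaling. They held 35605 peaks for WDR5 under DMSO, 14123 for WDR5 under MS67, 15141 for SS18::SSX under DMSO, and 1175 for SS18::SSX under MS67. A peak list gives no read total, so depth was recovered from each summit, the highest point of a peak, as its number of overlapping fragments. Genome-wide coverage was 0.368 fragments per bp for WDR5 under DMSO and 0.168 under MS67, a ratio of 0.458, and it was 0.541 and 0.737 for SS18::SSX. A gene was counted as having a peak when any base of the peak lay within 2 kb of the start site of its canonical transcript.

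WDR5 was found at nearly as many RP genes as not under DMSO, mostly as weak peaks. A peak lay within 2 kb of 38 of the 81 RP genes (46.9%, 95% CI 35.7 to 58.3, exact Clopper-Pearson), whereas the share over all protein-coding genes was 58.3%, at the upper end of that interval. These intervals cover counting error only. The share was alike in both subunits, with 23 of 49 large subunit genes (46.9%) and 15 of 32 small subunit genes (46.9%), a difference of 0.0638 percentage points (95% CI -23.3 to 23.2, combined from the exact intervals of the 2 shares by the square-and-add method). The best peak of each RP gene, that of highest −log10 q, had a median of 11.5 summit fragments against 14 over all genes with a peak. Its median fold enrichment over the local background was 4.37 against 5.26, and its median width 255 bp against 399 bp. The median −log10 q was 3.94 against 5.66. With −log10 q above 5, 13 RP genes (16.0%) were left, whereas 35.1% of all protein-coding genes passed. Other groups of the translation machinery had larger shares, with a WDR5 peak at 67 of 78 mitochondrial RP genes (85.9%), 54 of 71 translation factor genes (76.1%), and 19 of 30 ribosome biogenesis genes (63.3%).

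**Figure D1:**
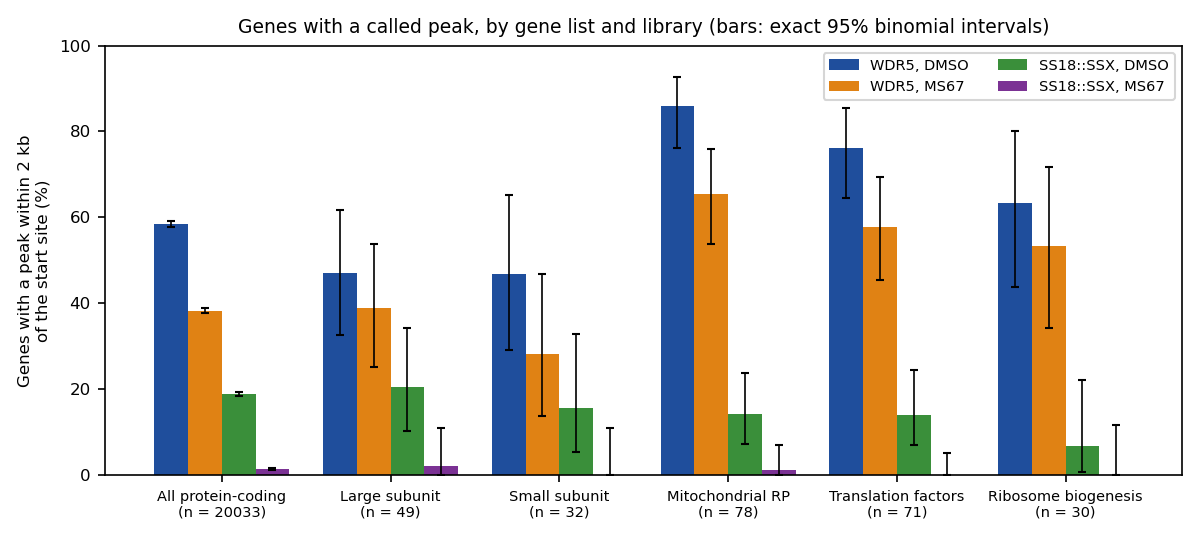
Share of genes (y axis, percent) with a peak within 2 kb of the start site in each of the 4 libraries, for all 20033 protein-coding genes, RP genes of the large and small subunit, and 3 related gene groups; lines are exact 95% binomial intervals. Under DMSO the WDR5 share is 46.9% for both subunits, below the 58.3% of all genes and the 85.9% of mitochondrial RP genes.

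The strongest WDR5 peaks under DMSO were at *RPL10A*, which encodes the protein of the L1 stalk, and at *RPL28*. The *RPL10A* peak (chr6:35467957-35468225) had 24 summit fragments over a background of 2.68, 6.79-fold enrichment, and −log10 q of 11.2, with its summit 289 bp upstream of the start site and outside the canonical transcripts of all genes. The *RPL28* peak (chr19:55384543-55385170) had 25 fragments and −log10 q of 9.17, with its summit 1108 bp upstream. That summit lay nearer to the start site of the divergent gene *TMEM238*. Small subunit genes came next. *RPS20* had a peak 266 bp upstream with 17 fragments and −log10 q of 7.91. *RPS10*, mutated in some families with Diamond-Blackfan anemia, had its peak 1341 bp downstream, in coding sequence shared with the readthrough gene *RPS10-NUDT3*, with 14 fragments and −log10 q of 7.70. *RPS28* likewise had its peak inside the gene, 1400 bp downstream with 16 fragments and −log10 q of 7.64. None of these 5 peaks reached the start site itself. The reference sequence (hg38) under the summits of *RPL10A*, *RPL28*, and *RPS10* is given on the strand of the gene, with the 11 bases at the summit in capitals.
RPL10A, WDR5, DMSO (chr6:35468062-35468162): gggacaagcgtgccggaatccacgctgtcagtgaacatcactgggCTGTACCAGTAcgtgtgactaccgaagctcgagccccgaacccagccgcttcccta
RPL10A, WDR5, MS67 (chr6:35468129-35468229): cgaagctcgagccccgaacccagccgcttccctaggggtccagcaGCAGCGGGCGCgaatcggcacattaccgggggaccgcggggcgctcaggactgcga
RPL28, WDR5, DMSO (chr19:55384774-55384874): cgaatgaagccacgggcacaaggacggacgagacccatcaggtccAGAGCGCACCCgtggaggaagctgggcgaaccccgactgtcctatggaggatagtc
RPS10, WDR5, DMSO (chr6:34424678-34424778): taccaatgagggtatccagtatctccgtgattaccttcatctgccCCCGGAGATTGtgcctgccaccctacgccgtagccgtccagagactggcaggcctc
None of the 4 windows held any of the E-box, ETS, TATA, or YY1 letters given above.

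The WDR5 peaks of RP genes under DMSO flanked the start site and did not cover it. No RP gene had a WDR5 peak that covered its canonical start site in either condition, whereas 15.4% of all protein-coding genes did under DMSO and 8.46% under MS67. A count of 0 of 81 allows a share of up to 3.70%. The nearest approach under DMSO was at *RPS20*, where the edge of a peak was 126 bp from the start. No RP gene had a summit in the first 1 kb downstream of the start, whereas 29.9% of all protein-coding genes did, and so did 33 of the 78 mitochondrial RP genes and 19 of the 71 translation factor genes. In the 2 kb upstream, by contrast, 28 RP genes (34.6%) had a summit, close to the background of 32.7%. Between 1 and 2 kb downstream, 12 RP genes (14.8%) had a summit against 16.0% of all genes. Of these 3 stretches, the first 1 kb of the transcribed region was the only one in which the RP share was far from that of all genes. The counts of covered starts and of summits in this first 1 kb were themselves added after seeing the data. The choice of start changed the counts. RP genes had a median of 8 annotated transcript starts, against 5 over all genes. Counted from any of these, which was an alternative chosen after seeing the data, 9 RP genes (11.1%) had a summit in the first 1 kb against 41.1% of all genes, and 5 (6.17%; *RPL22*, *RPL8*, *RPL3*, and *RPL10* among them) had a covered start against 27.8%.

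**Figure D2:**
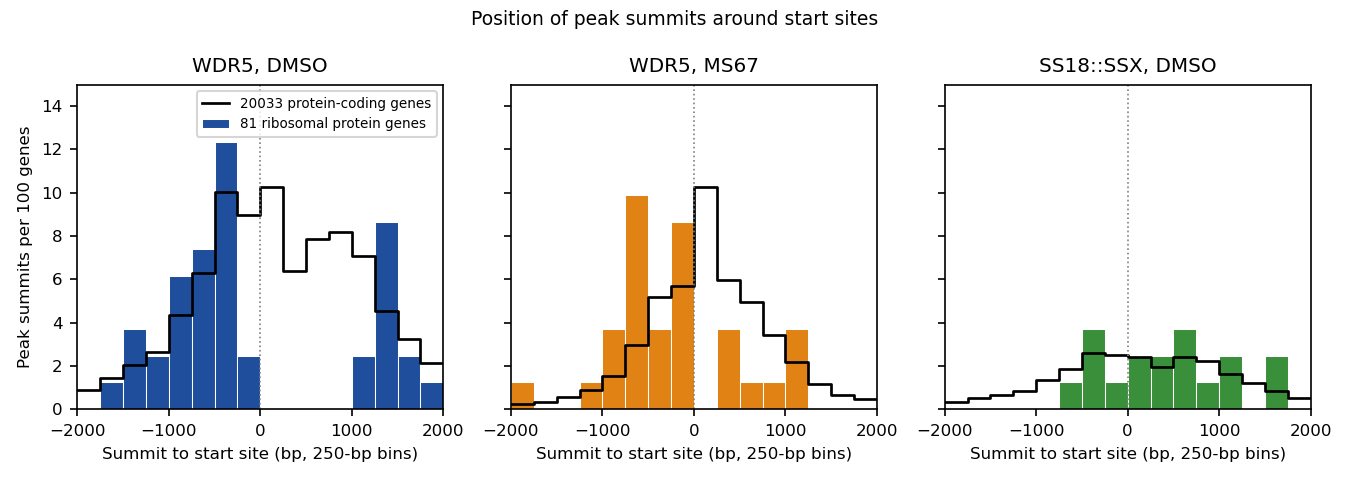
Peak summits per 100 genes (y axis) in 250-bp bins of distance to the start site (x axis, bp, negative is upstream) for the 81 RP genes (bars) and all 20033 protein-coding genes (black line) in 3 libraries. For WDR5 under DMSO the bars are absent over the first 1 kb downstream of the start site, where 29.9% of all genes have a summit.

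The subunits had similar shares of genes with a WDR5 peak under DMSO, but the positions of their best peaks were distributed differently, without a test. Best-peak summits of large subunit genes were upstream at 20 of 23 genes, with a median position 715 bp upstream. Those of small subunit genes were upstream at 7 of 15, with a median 1193 bp downstream that sits in a split of 7 to 8. Under MS67 most were upstream in both, at 15 of 19 large subunit genes and 6 of 9 small subunit genes, with medians 222 and 341 bp upstream. Under DMSO 43.3% of best peaks of all protein-coding genes were upstream, against 27 of 38 RP genes (71.1%). That share was 61.1% for translation factor genes, 56.7% for mitochondrial RP genes, and 47.4% for ribosome biogenesis genes. Upstream WDR5 peaks of large subunit genes that lay nearer to their own start than to any other were those of *RPL22*, *RPL37*, *RPL10A*, *RPL8*, *RPLP1*, *RPL13*, *RPL27*, *RPL38*, *RPL3*, and *RPL10*. At *RPL38*, whose product is known for its part in the translation of *Hox* mRNAs, the summit had 20 fragments and lay 476 bp upstream. At *RPLP1*, a protein of the acidic stalk that recruits elongation factors, it had 13 fragments 445 bp upstream. *RPL3*, which reaches the peptidyl transferase center, had 8 fragments 569 bp upstream. *RPL10*, one of the last proteins to join the large subunit, had 13 fragments 736 bp upstream. The summits of these 10 genes held 8 to 24 fragments each.

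Under DMSO, small subunit genes had WDR5 summits on both sides of the start. Of the 32 genes, 8 had a summit between 1 and 2 kb downstream and 8 had one in the 2 kb upstream. Over all protein-coding genes, 16.0% had a summit between 1 and 2 kb downstream and 32.7% had one in the 2 kb upstream. Besides *RPS10* and *RPS28*, WDR5 summits more than 1 kb downstream were found at *RPS7*, *RPS20*, *RPS6*, *RPS3*, *RPS26*, *RPS29*, and *RPS15*, among others. *RPS6*, the substrate of S6 kinase, had 12 fragments at 1358 bp, in coding sequence. *RPS3*, a protein of the mRNA entry channel, had 7 fragments at 1885 bp, and *RPS26*, a protein of the mRNA exit channel, had 8 at 1590 bp, both in introns. *RPS7*, whose product can bind MDM2, had 2 peaks, with 14 fragments 228 bp upstream and 16 fragments 2109 bp downstream. The other genes with 2 WDR5 peaks under DMSO were *RPL22*, *RPS20*, *RPL30*, *RPL8*, and *RPS15*. Among the large subunit genes, those with a summit downstream included *RPL22*, *RPL30*, *RPL35A*, and *RPL41*, and that of *RPL41*, the smallest RP, lay past the gene in an intron of *ZC3H10*, 2043 bp from the *RPL41* start. Of all 44 WDR5 peaks under DMSO, 14 had their summit within the canonical transcript of the RP gene (11 in introns, 2 in coding sequence, and 1 in an untranslated region), 14 within that of another gene, and 16 in neither. This split was not computed over all protein-coding genes.

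**Figure D3:**
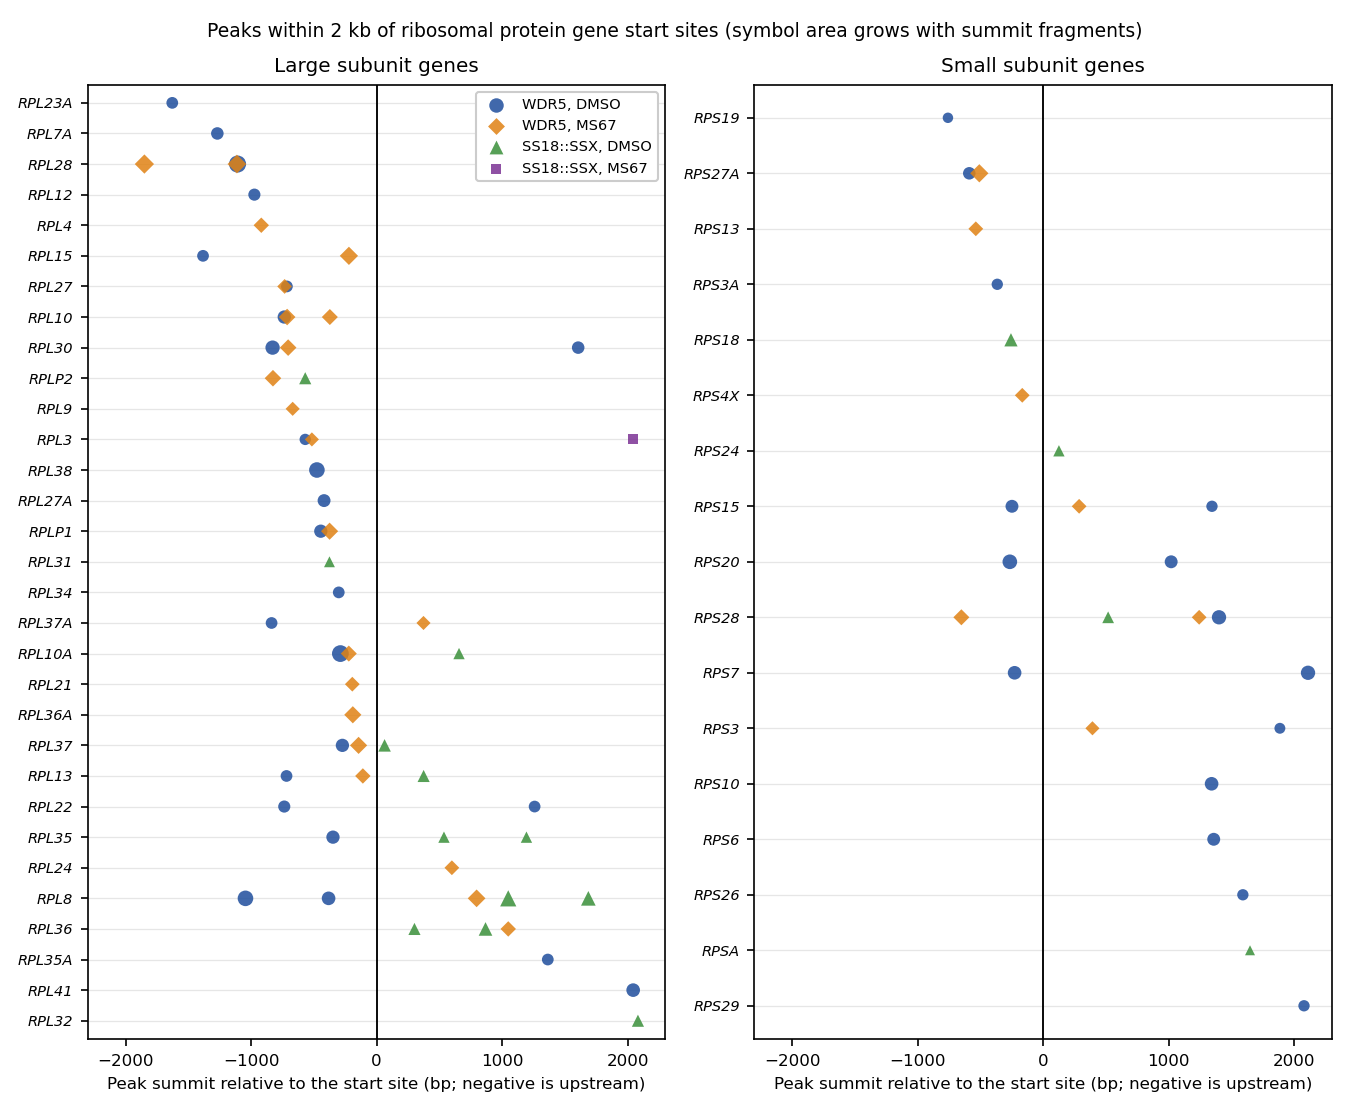
Position of every peak summit within the window (x axis, bp from the start site, negative is upstream) for 48 of the 53 RP genes with a peak in any list, large subunit genes on the left and small subunit genes on the right; symbol area grows with the number of summit fragments. WDR5 summits under DMSO (blue circles) leave the first 1 kb downstream empty, and SS18::SSX summits (green triangles) lie mostly downstream.

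Some of these peaks lay closer to a neighboring gene. Of the 44 WDR5 peaks under DMSO, 27 lay nearest to the RP start and 17 nearer to the start of another gene, a split not computed over all protein-coding genes. Those 17 included the peaks at *RPL35* (nearer to *ARPC5L*), *RPL7A* (*MED22*), *RPL12* (*LRSAM1*), *RPL27A* (*TRIM66*), *RPL15* (*NKIRAS1*), and *RPS27A* (*CLHC1*). Among the 33 RP genes with another start within 1 kb, 16 (48.5%) had a WDR5 peak, as did 22 of the 48 without (45.8%).

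The count of RP genes with a WDR5 peak under MS67, in a library of lower coverage, depended on the window. Within 2 kb it was 28 (34.6%, 95% CI 24.3 to 46.0), against 38 under DMSO, where the share of all protein-coding genes was 38.3% under MS67. Within 1 kb it was 27 (33.3%) in both conditions, whereas the share of all genes went from 51.4% under DMSO to 35.1%. Within 2 kb a peak was found at 19 large subunit genes (38.8%) and 9 small subunit genes (28.1%), a difference of 10.7 percentage points (95% CI -12.4 to 31.4), an interval that includes 0. The peaks were again weak, with a median of 7.5 summit fragments against 9 over all genes, and 3 RP genes (3.70%) had −log10 q above 5, against 9.42% of all. These 3 genes were *RPL36A*, with 10 fragments 190 bp upstream (−log10 q of 6.77), *RPS27A*, which encodes a fusion of ubiquitin and an RP, with 12 fragments 509 bp upstream (6.04), and *RPL15*, with 12 fragments 221 bp upstream (5.85). The peaks of *RPL28* (4.98) and *RPL10* (4.62) followed. Summits in the 2 kb upstream were at 21 RP genes (25.9%), against 16.5% of all genes. That share was 35.9% for mitochondrial RP genes, 30.0% for ribosome biogenesis genes, and 29.6% for translation factor genes. Summits in the first 1 kb downstream were at 5 RP genes (6.17%), against 22.7% of all genes. The 5 were *RPL37A*, *RPL24*, *RPL8*, *RPS3*, and *RPS15*, so under MS67 this stretch was not empty.

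WDR5 peaks were found in both conditions at 18 RP genes, which is 47.4% of those with a peak under DMSO (95% CI 31.0 to 64.2), whereas 59.5% of all protein-coding genes with a DMSO peak had one under MS67. A further 20 had a peak under DMSO only and 33 in neither condition. The best peaks of the 2 conditions overlapped at 8 of the 18 genes (44.4%), against 4094 of 6958 over all genes with both (58.8%). *RPL10A* went from 24 fragments under DMSO to 8 under MS67 at overlapping positions, 289 and 222 bp upstream. *RPL27* had 9 fragments 715 bp upstream under DMSO and 6 fragments 733 bp upstream under MS67. *RPLP1* had 13 and 10 fragments, 445 and 375 bp upstream. By contrast, the *RPS28* summit was 1400 bp downstream under DMSO, and the best one under MS67 was 652 bp upstream, with a weaker peak of 6 fragments 1242 bp downstream.

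Relative to the coverage of each library, the WDR5 summits of most genes with both peaks were no lower under MS67, and without that scaling they were lower. The ratio of coverage-scaled summit fragments, MS67 over DMSO, had a median of 1.41 over the 18 genes and of 1.28 over the 6958 protein-coding genes with both peaks. It ran from 0.727 at *RPL10A* to 2.91 at *RPL15*, and it was above 1 at 17 of the 18 genes. Since only 8 of the 18 pairs of best peaks overlapped, most of these ratios set different sites of a gene side by side, such as 1045 bp upstream and 796 bp downstream at *RPL8*. The 95% interval of a single gene (exact, for 2 Poisson counts) excluded 1 for *RPL15* only (1.12 to 7.82), where the peaks were 1383 and 221 bp upstream and did not overlap. Without scaling the median ratio was 0.646, against 0.588 over all genes, and by the deposited fold enrichment it was 1.02, against 0.989. The direction of change in WDR5 at RP genes thus depended on the scaling, while the RP median was 1.10 times that of all genes by summit fragments, which scaling by coverage cannot change, and 1.03 times by fold. Only genes with both peaks enter these ratios, and the spike-in factors were not used here.

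**Figure D4:**
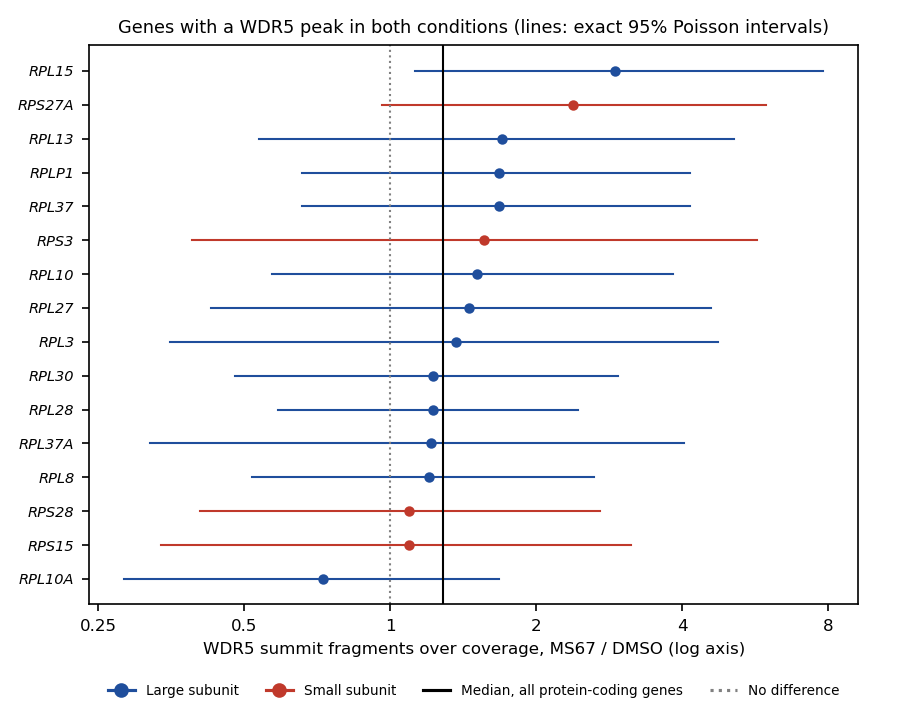
Ratio of WDR5 summit fragments per unit of library coverage, MS67 over DMSO (x axis, log scale), for 16 of the 18 RP genes with a WDR5 peak in both conditions; points are ratios and lines exact 95% Poisson intervals. The ratios run from 0.727 (*RPL10A*) to 2.91 (*RPL15*) around the median of all genes, 1.28 (black line), and only the interval of *RPL15* excludes 1.

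A WDR5 peak under MS67 with none under DMSO was found at 10 RP genes (12.3%), whereas this was seen at 3.56% of all protein-coding genes. Related groups were also above all genes. The share was 10.0% for ribosome biogenesis genes, 8.97% for mitochondrial RP genes, and 8.45% for translation factor genes. The RP genes included *RPL24*, *RPL9*, *RPLP2*, *RPL21*, *RPL4*, *RPL36*, and *RPL36A* of the large subunit and *RPS13* and *RPS4X* of the small. The *RPL36A* peak (chrX:101390719-101390898) was the strongest, with 10 fragments over a background of 0.46. Its product lies at the exit site for tRNA. *RPLP2*, the partner of RPLP1 in the stalk, had 9 fragments 826 bp upstream, and *RPL24*, which forms a bridge between subunits, had 6 fragments 599 bp downstream. The other 7 peaks had 5 to 7 fragments. Scaled down to the MS67 coverage, 11 of the 20 DMSO-only RP genes (55.0%) would still have passed the lowest −log10 p of the MS67 list, against 70.1% of all DMSO-only genes. Of the 18 with both peaks, 11 (61.1%) would have passed, against 83.3% of all. The other 7 of these 18 had a peak under MS67 all the same. This check took the best DMSO peak of each gene, and the best peaks of the 2 conditions overlapped at 8 of the 18. The part of coverage in the DMSO-only peaks was not tested.

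SS18::SSX under DMSO was as frequent at RP genes as elsewhere. A peak lay within 2 kb of 15 RP genes (18.5%, 95% CI 10.8 to 28.7), against 18.9% of all protein-coding genes, 10 of them of the large subunit and 5 of the small. Their median −log10 q was 2.77, and 2 passed 5 (2.47%, against 4.82% of all). In contrast to WDR5, SS18::SSX summits were in the first 1 kb downstream at 7 RP genes (8.64%, against 8.57% of all) and in the 2 kb upstream at 5 (6.17%, against 9.7%). Most lay inside the gene, with 13 of 18 within the canonical transcript, 7 in introns and 6 in coding sequence. The same share over all protein-coding genes was not computed, so this is not shown to be particular to RP genes. The strongest was at *RPL8*, a protein of the peptidyl transferase center, with 22 fragments 1048 bp downstream (−log10 q of 7.88) and a second peak of 17 fragments at 1686 bp. *RPL32* had 10 fragments 2081 bp downstream (5.31). *RPS18* had 13 fragments 257 bp upstream (4.63), and *RPL36* had 14 fragments 867 bp downstream (4.61). Only *RPL8*, *RPL35*, and *RPL36* had 2 SS18::SSX peaks. The closest peak to a start was at *RPS24*, a Diamond-Blackfan anemia gene, whose peak edge was 7 bp from it.

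WDR5 and SS18::SSX peaks under DMSO were both present at 8 RP genes (9.88%), against 16.1% of all protein-coding genes, among them *RPL37*, *RPL10A*, *RPL8*, *RPL35*, *RPL13*, and *RPS28*. The peaks of the 2 proteins overlapped at none of the 8. Over all protein-coding genes with both, the best peaks overlapped at 1427 of 3219. At *RPL35*, whose product lies by the exit of the peptide tunnel, WDR5 had 13 fragments 348 bp upstream (−log10 q of 6.65), and SS18::SSX had 8 fragments at 536 bp and 8 at 1193 bp downstream. At *RPL37*, WDR5 was 273 bp upstream and SS18::SSX 63 bp downstream, on opposite sides of the start. Of the RP genes with an SS18::SSX peak under DMSO, 53.3% also had a WDR5 peak, against 85.1% of all such protein-coding genes. SS18::SSX without a WDR5 peak under DMSO was found at *RPL31*, *RPL32*, *RPL36*, *RPLP2*, *RPSA*, *RPS18*, and *RPS24*.

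Under MS67, no RP gene kept an SS18::SSX peak. None of the 15 RP genes with a peak under DMSO had one under MS67, and the only RP gene with a peak there was *RPL3* (1.23%, against 1.39% of all protein-coding genes), which had none under DMSO. That peak had 7 fragments and −log10 q of 1.51 (0.22% of all genes had one above 5), and its summit was 2041 bp downstream, so it entered the window by its edge alone. Coverage of the MS67 library was the higher of the SS18::SSX pair. Raised to that coverage, the best peaks of all 15 genes would have passed its lowest −log10 p. So would 99.4% of all protein-coding genes that had a peak under DMSO only. A called peak can hardly fail this check when coverage is raised, so it does not tell why the peaks were absent. The share of all protein-coding genes that kept a peak was also small, at 252 of 3783.

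Of the genes assayed in the study, *RPL7* had no peak within 2 kb of its canonical start in any list. Its nearest WDR5 peak under DMSO was 3235 bp away. By another assay, CUT&Tag, the paper reports less histone methylation at *RPL7* and *RPL35* under MS67, and it describes both as known WDR5 targets in cancers. Absence from these CUT&RUN lists therefore does not show that *RPL7* lacks WDR5. *RPL27* had WDR5 in both conditions, *RPL35* had WDR5 and SS18::SSX under DMSO only, and *RPS10* had WDR5 under DMSO only. No peak in any list lay near 28 RP genes (34.6%), close to the 35.7% of all protein-coding genes. They were *RPL5*, *RPL6*, *RPL7*, *RPL10L*, *RPL11*, *RPL13A*, *RPL14*, *RPL17*, *RPL18*, *RPL19*, *RPL23*, *RPL26*, *RPL29*, *RPL39*, *RPL3L*, *RPL39L*, and *RPLP0* of the large subunit and *RPS2*, *RPS9*, *RPS12*, *RPS14*, *RPS15A*, *RPS16*, *RPS21*, *RPS23*, *RPS25*, *RPS27*, and *RPS27L* of the small. *RPL5* and *RPL11*, which with 5S rRNA form the complex that restrains MDM2, were thus both without a peak, as was *RPLP0*, the base of the acidic stalk. All 4 paralogs of the rule, *RPL3L*, *RPL10L*, *RPL39L*, and *RPS27L*, were among them. Of 4 paralogs outside the rule, 3 had a WDR5 peak under DMSO. *RPSA*, which also serves as a laminin receptor, had only the SS18::SSX peak of 5 fragments 1647 bp downstream. The 43 RP genes with no WDR5 peak under DMSO had their nearest one at a median of 10498 bp, and the closest was at *RPL19*, 2265 bp away and just outside the window. For 20 of the 43 it was within 10 kb.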

How the data were processed

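CUT&RUN peak lists of 4 libraries (WDR5 and SS18::SSX, DMSO or MS67, 1 library each) were analysed. The authors aligned reads to hg38 and to the murine spike-in genome with Bowtie2, removed duplicates with Picard, and called peaks with MACS2 in each library. The submitters' processing notes also name SAMtools 1.9, bedtools 2.28.0, and deepTools 3.3.0. MACS2 options, a control library, and the placement of reads that align to several copies are not given in the sources used here. Per the file headers, the deposited values are each peak's fold enrichment (a ratio of pileup to local background), −log10 p, and −log10 q, none of them scaled to the spike-in. The deposited summit offset gave the summit position, and the deposited score was not used. Every peak fitted within its hg38 chromosome.

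MACS2 writes the fold as pileup plus 1 over background plus 1 and p as the Poisson tail of the same 2 numbers, so whole summit fragments were solved for. They fitted 100% of peaks to within 0.001 in −log10 p, and the step was tested on simulated peaks. The lowest background of a list was taken as its coverage. Start sites were those of Ensembl canonical transcripts (GENCODE 44), and positions are signed along the gene. Shares carry exact 95% intervals, ratios exact intervals for 2 Poisson counts, and a count of 0 an upper limit of 3 counts. The members, comparison lists (mitochondrial RP, EIF and EEF translation factor, and ribosome biogenesis genes), and alternatives were chosen with earlier results of these data known. Genes named with values were from the 6 of highest −log10 q in each list, the 4 RT-qPCR genes, the paralogs, *RPL41*, genes without WDR5 under DMSO or with a peak under MS67 only, those with the most peaks, and *RPL5*, *RPL11*, *RPSA*, and the stalk genes; other values were chosen after they were seen. The alternatives were other windows, start sites, thresholds, overlaps, and scalings. RefSeq promoters were not matched for *RPL5*, *RPL39L*, *RPL37*, *RPS20*, *RPL7*, *RPL30*, *RPL8*, *RPL3L*, *RPS2*, *RPS15A*, *RPL23A*, and *RPL23*, among others. Some genes that enter the counts are not reported by name here. The analysis used pandas 2.3.3, numpy 2.4.6, matplotlib 3.10.9, and scipy 1.17.1 under Python 3.11.15.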

Additional observations from a re-analysis of the deposited data

How the results depend on the processing

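Of 76 values recomputed under alternatives for 13 results, 44 were classed as staying, 31 moved, and 1 reversed. The class of staying was wide for counts. For WDR5 under DMSO it took in 27 RP genes within 1 kb, against 38 within 2 kb. A median or a difference stayed when it lay inside the interval of the reported value. In a HOMER-like promoter (1000 bp upstream to 100 bp downstream, holding the peak center), WDR5 was at 23 RP genes under DMSO (28.4%, against 31.2% of all genes) and at 20 under MS67 (24.7%, against 18.2%, so that the RP share was then the higher one). In the same promoter, SS18::SSX under DMSO was at 6 RP genes (7.41%, against 8.84% of all genes), both proteins at 0, and WDR5 in both conditions at 10. With the study's stricter peaks (−log10 q above 3 with fold above 6 for WDR5 or 3 for SS18::SSX), WDR5 was at 6 under DMSO (7.41%, against 17.3% of all genes) and 4 under MS67 (4.94%, against 10.5%), SS18::SSX under DMSO at 7 (8.64%, against 11.7%), both proteins at 0, WDR5 in both conditions at 0, and the median WDR5 summit position -257.5 bp. With −log10 q above 5, the same counts were 13, 3, 2, 1, and 0. Within 1 kb, both proteins were at 5 RP genes. Shares of all genes with both proteins, or with WDR5 in both conditions, were not computed for these alternatives. When peaks had to overlap by 1 bp or by 50% of the shorter, both proteins were at 0 and WDR5 in both conditions at 10. The single SS18::SSX gene under MS67 became 0 within 1 kb, in the HOMER-like promoter, with either stricter threshold, and by summit, and 2 with any annotated start. The median WDR5 ratio of 1.41 was 1.02 by fold and reversed to 0.646 unscaled. The counts of covered starts and of summits in the first 1 kb, like their alternatives, were chosen after seeing the data. The 0 genes with a WDR5 summit in the first 1 kb became 9 with any annotated start (11.1%, against 41.1% of all genes). They became 3 with any base of a peak (3.70%, against 38.7%). With any annotated start, the 0 covered starts became 5 (6.17%, against 27.8%). The 5 genes with such a summit under MS67 became 13 (16.0%, against 29.0%). No paired analysis was possible because the labels carry no replicate numbers and each condition has 1 library, which also means that no library could be left out. Depth limits these results, since the best WDR5 peaks of RP genes had a median of 11.5 fragments under DMSO and 7.5 under MS67.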

Other observations

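RP genes have many processed pseudogenes, to which short reads can also align. By name, GENCODE 44 lists a median of 13 for each of the 81 RP genes, from 0 to 133 (*RPL21*). The median was 12.5 for RP genes with a WDR5 peak under DMSO and 13 for those without, and their median gene lengths were 5340 and 5548 bp. The part of such reads in the counts was not tested.

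Base composition at the summits was also recorded, over 101 bp of the reference centered on each. The median GC content was 56.4% at the 44 WDR5 peaks of RP genes under DMSO, against 62.4% at the best peaks of all protein-coding genes. It was 61.4% against 65.3% for WDR5 under MS67 and 61.4% against 63.4% for SS18::SSX under DMSO. The least GC-rich window among the WDR5 peaks under DMSO held 36.6%, that of *RPL27*.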
